A study of Mus musculus with 12 samples.

Results

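Hair follicle dermal stem cells and dermal sheath cells were compared with dermal papilla cells and interfollicular dermal cells, 6 RNA sequencing libraries against 6, which are all 12 libraries of the study. The libraries were chosen by their population label alone. Each population had 3 libraries: dermal stem cells replicates 1, 2 and 4, dermal sheath replicates 1, 4 and 5, dermal papilla replicates 1, 2 and 4, and interfollicular dermis replicates 1, 2 and 6. The title of sheath replicate 1 is DSL1, with an extra letter that the labels do not explain, and its cell type label is that of the other sheath libraries. All cells came from the back skin of male Sox2:GFP/aSMA:dsRed mice at post-natal day 26 to 27, in early anagen, the start of a hair growth phase, so every population shares both reporters, the sex, the age and the stage. In these mice a green protein reports Sox2 and a red protein reports aSMA, the smooth muscle actin encoded by Acta2. Skin was digested with dispase and collagenase, stained with antibodies that the labels do not name and sorted by flow cytometry. The gates are not given in the sources used here, and the labels do not say whether a library pooled animals.

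The comparison has 2 arms that share no library. The stem cell arm is stem cells minus papilla, the sheath arm is sheath minus interfollicular dermis, and the combined contrast is the mean of the 2 arms, with the 4 populations weighted equally. Values are the authors' FPKM, fragments per kilobase of transcript scaled to each library's mapped fragments. Fold changes are differences between means of log2(FPKM + 1), a scale that understates the change of low genes, and are given ± the standard error of the limma fit. A gene is called where the Benjamini-Hochberg adjusted p of limma's moderated test, over all genes tested, is under 0.05. In bulk libraries, fewer cells of a type and less RNA per cell cannot be told apart.

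Dermal stem cells of the follicle are mesenchymal cells at its base, in the dermal cup, that carry smooth muscle actin and give rise to new sheath cells and some papilla cells at each hair cycle. The dermal sheath is a contractile layer around the follicle, anchored on a basement membrane rich in collagen. The dermal papilla is the signalling centre at the base of the follicle and is known for R-spondins, Wnt antagonists, BMPs and FGFs that act on the overlying epithelium and on melanocytes. Hedgehog ligand made by the growing hair epithelium is received by the surrounding mesenchyme, where Ptch1 and Gli1 are direct targets.

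Marker genes set the label of each population against its transcripts. Pdgfra, a receptor found on dermal fibroblasts, had 49, 48.9 and 70.6 FPKM in stem cells and 3.95, 4.22 and 1.52 FPKM in sheath, against 28.3, 28.9 and 47.4 FPKM in papilla and 3.32, 2.24 and 4.95 FPKM in interfollicular dermis. Trp63, a transcription factor of basal keratinocytes, had 9.23, 20.8 and 16.4 FPKM in stem cells and 98.7, 116 and 147 FPKM in sheath, against 24.8, 14.8 and 8.86 FPKM in papilla and 98.1, 75.8 and 93.2 FPKM in interfollicular dermis. Sheath and interfollicular libraries thus had the lower Pdgfra and the higher Trp63. The proliferation gene Mki67 ranged from 90.7 to 108 FPKM in sheath and from 52.3 to 72.7 FPKM in interfollicular dermis, while no stem cell or papilla library passed 9.84 FPKM. Shh and the hair cortex keratin gene Krt35, both epithelial genes of the growing follicle, ran from 41.5 to 83.7 FPKM and from 254 to 365 FPKM in interfollicular dermis. The transcripts therefore do not bear out a purely dermal label for the sheath and interfollicular libraries, and both names are used here as labels only. Macrophage and dendritic cell markers summed to 4587, 2207 and 139 FPKM in stem cells replicates 1, 2 and 4, against 1748, 899.7 and 588 FPKM in papilla replicates 1, 2 and 4, and their part in the results was not tested.

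Of 12774 genes tested, 1160 (9.08%) were called in the combined contrast, 765 higher (5.99%) and 395 lower (3.09%) in stem cells and sheath. The stem cell arm called 1110 genes (8.69%), 815 higher (6.38%) and 295 lower (2.31%), and the sheath arm 289 (2.26%), 120 higher (0.939%) and 169 lower (1.32%). Both arms called 72 genes in the same direction (0.564% of those tested), 38 higher (0.297%) and 34 lower (0.266%), and 10 genes in opposite directions (0.0783%). A further fit had the replicate number as a block within stem cells and papilla. There both arms called 125 genes in the same direction, 71 of them among the 72. After removal of population means, same-numbered libraries of these 2 populations correlated at 0.241 to 0.389. Stem cells and sheath replicates 1 did so at 0.294, so the correlations do not show that the numbers mark pairs. The 72 genes made up 6.49% of the genes called in the stem cell arm and 24.9% of those called in the sheath arm. The libraries of the 2 groups did not overlap for 3834 genes (30%) in the stem cell arm and 2761 (21.6%) in the sheath arm. Both arms were free of overlap, in the same direction, for 653 genes (5.11%), 469 higher (3.67%) and 184 lower (1.44%), and 71 of the 72 were among these; for 218 genes (1.71%) they did not overlap in opposite directions. Over all genes the 2 arms had the same sign in 57.1%, and Pearson's r between their fold changes was 0.26 across genes, which are not independent replicates. Of the 1160 genes called in the combined contrast, 581 were called in the stem cell arm only, 157 in the sheath arm only and 350 in neither arm, so most of the combined calls did not come from genes called in both.

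The split between higher and lower calls depended on scaling. The median of the combined fold change over all genes was 0.16 on the log2 scale as deposited and 0.04 after median-of-ratios scaling. Higher genes made up 65.9% of the combined calls as deposited, 46.5% after median-of-ratios scaling (420 higher and 483 lower) and 46.7% after quantile normalization (436 higher and 498 lower). The genes called in both arms went the same way, with 27 higher and 41 lower after median-of-ratios scaling and 28 higher and 39 lower after quantile normalization. The stem cell arm had 515 higher and 463 lower after median-of-ratios scaling and 467 higher and 493 lower after quantile normalization.

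**Figure D1:**
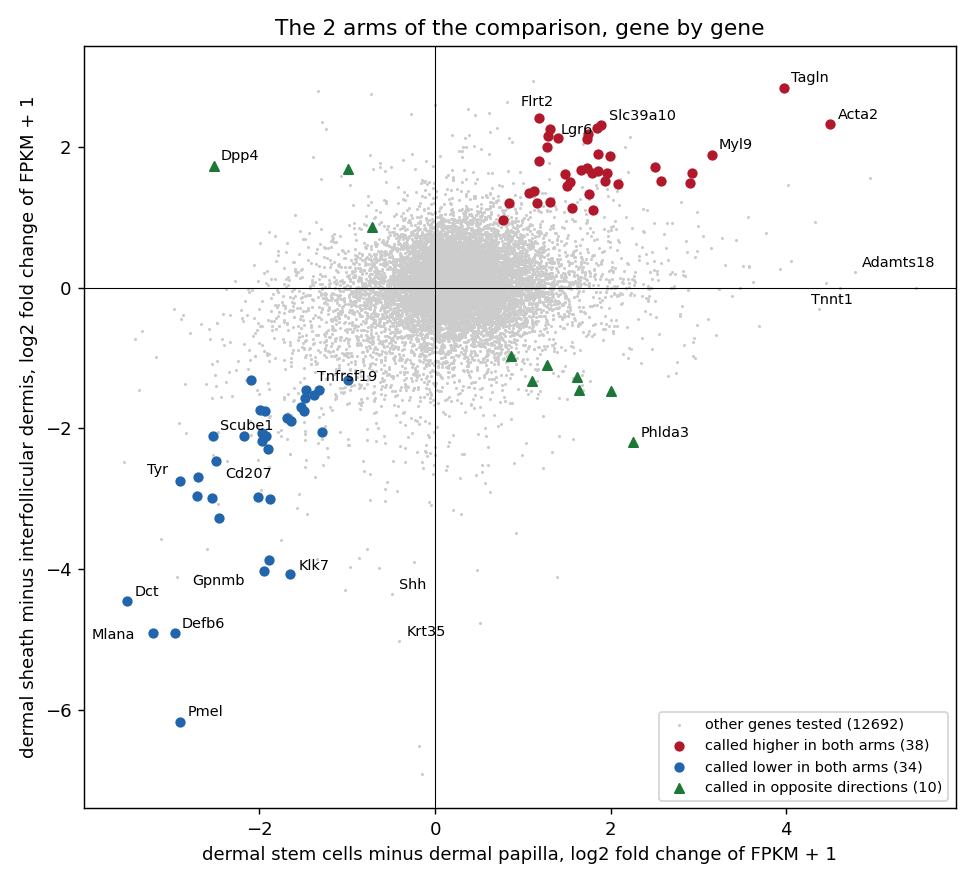
Log2 fold change of FPKM + 1 in the stem cell arm (horizontal axis) and in the sheath arm (vertical axis) for each of 12774 genes tested. Red points are the 38 genes called higher and blue points the 34 called lower in both arms, green triangles the 10 called in opposite directions, and grey points the other genes; Acta2 and Tagln lie at the upper right, Dct and Mlana at the lower left.

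Among the gene lists, the smooth muscle contractile apparatus had the most members called higher in both arms. Of 28 listed and tested, 19 were called higher and 0 lower in the combined contrast, with a median fold change of 1.35 against 0.16 over all genes. The 19 became 10 when stem cells replicates 1 and 2 were left out together. The 6 called in both arms were Acta2, Tagln, Myl9, Tpm1, Smtn and Cald1, and the others of the 19 were called in the stem cell arm only. Among these, Pdlim3 was lower in sheath than in interfollicular dermis, without overlap (2.94 in the stem cell arm, -0.97 in the sheath arm). Its arms differed (adjusted p = 0.00119), as did those of Actg2, Tpm2, Csrp1 and Actn1, each more positive in the stem cell arm. Pdlim3, Tpm2, Csrp1 and Actn1 were named after their values were seen. The levels themselves were highest in stem cells, where the list summed to 4527 to 4913 FPKM, and lower in sheath, at 792 to 1355 FPKM, against 483 to 893 FPKM in papilla and 321 to 378 FPKM in interfollicular dermis. Sheath and papilla sums therefore overlapped, while each arm was separated.

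Acta2 (chr19:34240336-34255585 in GRCm38.p6), which encodes smooth muscle actin, had 866, 901 and 849.8 FPKM in stem cells and 35.8, 36.2 and 76 FPKM in sheath, against 29.3, 86.4 and 20.5 FPKM in papilla and 5.72, 10.4 and 9.95 FPKM in interfollicular dermis. Its 3 sheath libraries lay above the 3 interfollicular libraries but within the range of papilla. The fold change was 4.50 ± 0.45 in the stem cell arm (adjusted p = 0.000124) and 2.32 ± 0.45 in the sheath arm (adjusted p = 0.0182). Because the red reporter of these mice stands for the same gene and the gates are not given, its direction is not independent of how the cells may have been sorted. The same limit applies to other contractile genes, so far as the same cells express them, and this was not tested. Tagln (chr9:45929628-45936058), which encodes the actin-binding protein transgelin, had 547, 600.0 and 584 FPKM in stem cells and 44.8, 99.6 and 258 FPKM in sheath, against 29.4, 60.9 and 25.4 FPKM in papilla and 8.01, 19 and 16.9 FPKM in interfollicular dermis. Sheath replicate 5 was the highest of its group, and the groups did not overlap in either arm. Its fold changes were 3.97 ± 0.53 and 2.85 ± 0.53 in the stem cell and sheath arms.

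Other contractile genes moved with them at different levels. Myl9 (chr2:156775408-156781657), a regulatory light chain of myosin, had 640.1, 735 and 628 FPKM in stem cells and 48.1, 57 and 101 FPKM in sheath, against 41.4, 127 and 76.6 FPKM in papilla and 13, 24.7 and 14.8 FPKM in interfollicular dermis, a fold change of 2.52 ± 0.27 in the combined contrast (adjusted p = 0.000273). Tpm1 (chr9:67022590-67049672), a tropomyosin that lies along actin filaments, had 788, 856 and 1172 FPKM in stem cells and 239.8, 381 and 428 FPKM in sheath, against 119, 201 and 176 FPKM in papilla and 105, 105 and 99.6 FPKM in interfollicular dermis. Smtn (chr11:3517522-3539292), which encodes the actin-binding protein smoothelin, had 39.1, 45.1 and 38.4 FPKM in stem cells and 46.6, 33.6 and 67.5 FPKM in sheath, against 11, 10.7 and 10.02 FPKM in papilla and 7.2, 14.3 and 16.2 FPKM in interfollicular dermis. Smtn had similar levels in stem cells and sheath, and its arms were 1.85 ± 0.30 and 1.90 ± 0.30. Cald1, the actin and myosin regulator caldesmon, had 169.8, 185 and 224 FPKM in stem cells and 37.8, 34 and 40.4 FPKM in sheath, against 36.6, 53 and 91.5 FPKM in papilla and 14.5, 15.9 and 12.5 FPKM in interfollicular dermis. Actg2, the enteric smooth muscle actin, was called in the stem cell arm only, with 240.2, 228 and 239 FPKM in stem cells and 4.06, 7.19 and 2.31 FPKM in sheath, against 14.9, 17.2 and 9.72 FPKM in papilla and 0.194, 1.54 and 1.19 FPKM in interfollicular dermis.

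**Figure D2:**
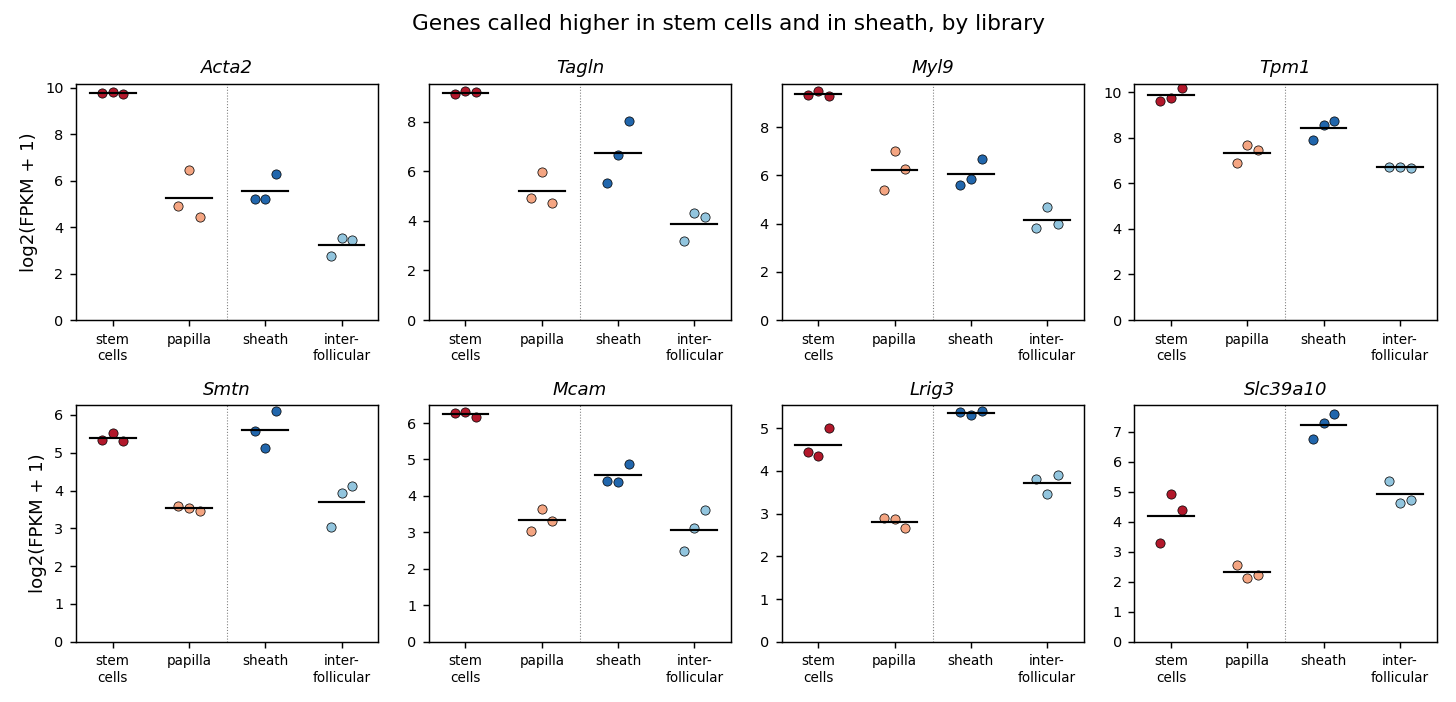
Expression as log2(FPKM + 1) in each library (points) with the mean of each population (bars) for 8 genes called higher in both arms, in stem cells next to papilla and in sheath next to interfollicular dermis. Acta2, Tagln, Myl9 and Tpm1 were highest in stem cells, whereas Lrig3 and Slc39a10 were highest in sheath.

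Actin cytoskeleton genes that are targets of serum response factor, SRF, also leaned higher. Of 16 tested, 9 were called higher and 0 lower, with a median of 0.74; under median-of-ratios scaling 5 were called and under quantile normalization 6. Leaving out single libraries left 5 to 8 called, with 5 called without stem cells replicate 1 and 5 without sheath replicate 5. When stem cells replicates 1 and 2 were left out together 2 were called, and 5 were when papilla replicates 1 and 2 were. Fhl1, a LIM-domain protein of muscle, was the member called in both arms (chrX:56731209-56793346), with 97.3, 91 and 87.1 FPKM in stem cells and 10.9, 23.3 and 32.5 FPKM in sheath, against 29, 24.8 and 20.4 FPKM in papilla and 3.73, 8.55 and 5.8 FPKM in interfollicular dermis. Flna, which encodes the actin crosslinker filamin A, had a combined fold change of 1.27 ± 0.26 (adjusted p = 0.0102) and 103, 103 and 103 FPKM in stem cells and 93.3, 38.9 and 56 FPKM in sheath, against 32, 31.6 and 37.5 FPKM in papilla and 17.4, 29.1 and 53.1 FPKM in interfollicular dermis.

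SRF binds the CArG box, so promoter sequences from RefSeq were searched for it on both strands. Each ran from 250 bases before to 50 after an annotated start (GRCm38.p6). A gene was counted where any of its promoters held the motif, and each promoter printed here was picked for holding it. The motif was present in 3 of the 29 genes called higher in both arms that had a promoter in that table (10.3%), namely Myl9, Fhl1 and Myadm, in 0 of 26 called lower and in 1.62% of the 9736 tested genes with a promoter. These shares are a description of letters, not of binding. The promoters of Myl9 (chr2:156775214-156775513, + strand) and Fhl1 (chrX:56779433-56779732, + strand) are shown because both genes belong to the contractile and actin lists above, with the CArG box in capitals, starting 161 and 102 bases before the start. Both starts lie inside the gene as annotated, and for Fhl1 so does the whole window.
Myl9: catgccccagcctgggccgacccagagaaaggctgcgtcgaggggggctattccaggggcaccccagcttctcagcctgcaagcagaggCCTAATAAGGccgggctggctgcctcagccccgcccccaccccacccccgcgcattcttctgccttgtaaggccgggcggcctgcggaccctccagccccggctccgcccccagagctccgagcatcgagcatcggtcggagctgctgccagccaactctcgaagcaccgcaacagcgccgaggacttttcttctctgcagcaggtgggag
Fhl1: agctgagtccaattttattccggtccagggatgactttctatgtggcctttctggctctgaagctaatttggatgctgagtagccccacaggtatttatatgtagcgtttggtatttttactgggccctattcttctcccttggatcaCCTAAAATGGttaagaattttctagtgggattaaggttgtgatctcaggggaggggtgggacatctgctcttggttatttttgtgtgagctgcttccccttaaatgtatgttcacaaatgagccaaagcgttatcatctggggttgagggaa

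Markers of the sheath and cup and matrix genes were split between the arms. Of 16 sheath and cup markers tested, 9 were called higher and 0 lower in the combined contrast, with a median of 1.28 combined, 2.64 in the stem cell arm and 0.13 in the sheath arm. Mcam, the cell adhesion molecule CD146 of pericytes and smooth muscle, was the member called in both arms, with 76.9, 77.4 and 70.6 FPKM in stem cells and 20.3, 20.03 and 28.6 FPKM in sheath, against 7.26, 11.6 and 8.99 FPKM in papilla and 4.64, 7.69 and 11.3 FPKM in interfollicular dermis and fold changes of 2.91 ± 0.28 and 1.49 ± 0.28. Acan, the proteoglycan aggrecan, had 10.9, 8.41 and 25.1 FPKM in stem cells and 0.759, 0.532 and 1.11 FPKM in sheath, against 0.068, 0.104 and 0.983 FPKM in papilla and 0.0261, 0.153 and 0.176 FPKM in interfollicular dermis. Stmn2, a microtubule regulator best known from neurons, had 54, 33.5 and 141 FPKM in stem cells and 0.673, 2.6 and 0.699 FPKM in sheath, against 1.49, 1.68 and 3.57 FPKM in papilla and 2.48, 2.67 and 0.53 FPKM in interfollicular dermis. Both were high in stem cells alone, and the difference between the arms was called for Stmn2 (4.68 ± 0.74, adjusted p = 0.00725) and for Acan (2.75, adjusted p = 0.02).

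Among secreted matrix proteins, Bgn, Mgp and Tnc were called higher in both arms. Bgn (chrX:73483601-73495936), the small proteoglycan biglycan, had 2058, 1448 and 2683 FPKM in stem cells and 130.2, 168 and 225 FPKM in sheath, against 613, 349.6 and 587 FPKM in papilla and 36.9, 49.7 and 51.6 FPKM in interfollicular dermis. Mgp, an inhibitor of calcification, had 2072, 1088 and 1266 FPKM in stem cells and 80.6, 104 and 163 FPKM in sheath, against 219, 213 and 137 FPKM in papilla and 30.7, 47.1 and 30.2 FPKM in interfollicular dermis. Tnc, the adhesion-modulating glycoprotein tenascin C, was higher in sheath than in stem cells, with 6.13, 14.5 and 9.66 FPKM in stem cells and 43.7, 26.2 and 29.7 FPKM in sheath, against 2.68, 5.39 and 2.55 FPKM in papilla and 6.01, 7.46 and 8.8 FPKM in interfollicular dermis. Of 14 fibrillar and associated collagen genes tested, 3 were called higher (Col11a1, Col12a1 and Col27a1) and 0 lower. Col12a1, a collagen on the surface of fibrils, had 48.7, 48.9 and 98 FPKM in stem cells and 12.3, 6.02 and 8.76 FPKM in sheath, against 5.57, 9.77 and 9.16 FPKM in papilla and 2.96, 2.23 and 4.68 FPKM in interfollicular dermis, and its call came from the stem cell arm (2.81 ± 0.35, adjusted p = 0.000528; sheath arm 1.22 ± 0.35, adjusted p = 0.102). The call of Col27a1 ended without 10 of the 12 libraries, left out singly, with adjusted p up to 0.119. Basement membrane genes had 4 of 25 called higher and 0 lower (3 and 1 under either other scaling), and matrix enzymes and their inhibitors 4 of 24 higher and 0 lower. Elastic fibre and matricellular genes had 4 of 23 higher and 1 lower, and 8 higher without interfollicular replicate 6. When stem cells replicates 1 and 2 were left out together, 5 of the sheath and cup markers, 1 basement membrane gene and 1 matrix enzyme or inhibitor were called higher.

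The hedgehog pathway separated the ligand from its receivers. Of 12 genes tested, 5 were called higher in the combined contrast (Gli1, Gli2, Ptch1, Smo and Boc) and Shh was called lower. Smo and Boc were called in neither arm and were named after their values were seen. Gli1 (chr10:127329882-127341579), a transcription factor that is itself a hedgehog target, had 33.3, 36.8 and 47.9 FPKM in stem cells and 45.3, 41.9 and 61 FPKM in sheath, against 6.4, 7.38 and 12.4 FPKM in papilla and 10.5, 20.7 and 22.2 FPKM in interfollicular dermis. It was called in both arms, 2.08 ± 0.31 in the stem cell arm and 1.47 ± 0.31 in the sheath arm, with no overlap in either. Gli2, the main activator of the pathway, had 14.2, 10.5 and 16.9 FPKM in stem cells and 9.42, 8.29 and 12.1 FPKM in sheath, against 1.62, 2.88 and 4.09 FPKM in papilla and 2.64, 2.65 and 5.3 FPKM in interfollicular dermis, a combined fold change of 1.64 ± 0.22 (adjusted p = 0.001). It was called in the stem cell arm (1.97, adjusted p = 0.00273) and not in the sheath arm (1.31, adjusted p = 0.0539). Ptch1, the hedgehog receptor, had 24, 16.1 and 40.1 FPKM in stem cells and 53.5, 45 and 57.7 FPKM in sheath, against 6.49, 7.58 and 17.6 FPKM in papilla and 10.3, 12 and 24.4 FPKM in interfollicular dermis, and was 1.29 ± 0.41 in the stem cell arm (adjusted p = 0.0688) and 1.77 ± 0.41 in the sheath arm (adjusted p = 0.0432).

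Shh (chr5:28456840-28467101), the ligand, had 0.542, 0.313 and 0.614 FPKM in stem cells and 1.48, 3.13 and 1.88 FPKM in sheath, against 0.708, 1.2 and 1.4 FPKM in papilla and 70.1, 83.7 and 41.5 FPKM in interfollicular dermis. It was high in the interfollicular libraries alone, with a sheath arm of -4.36 ± 0.31 (adjusted p = 5.02e-05), a stem cell arm of -0.49 ± 0.31 (adjusted p = 0.344) and a called difference between arms of 3.87 ± 0.43 (adjusted p = 0.00133). In the sheath arm the ligand and its targets thus ran in opposite directions. The count of 5 higher genes fell to 3 without any one of stem cells replicates 1, 2 or 4, sheath replicates 1 or 5 or interfollicular replicates 1 or 2, and to 3 under median-of-ratios scaling and under quantile normalization.

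**Figure D3:**
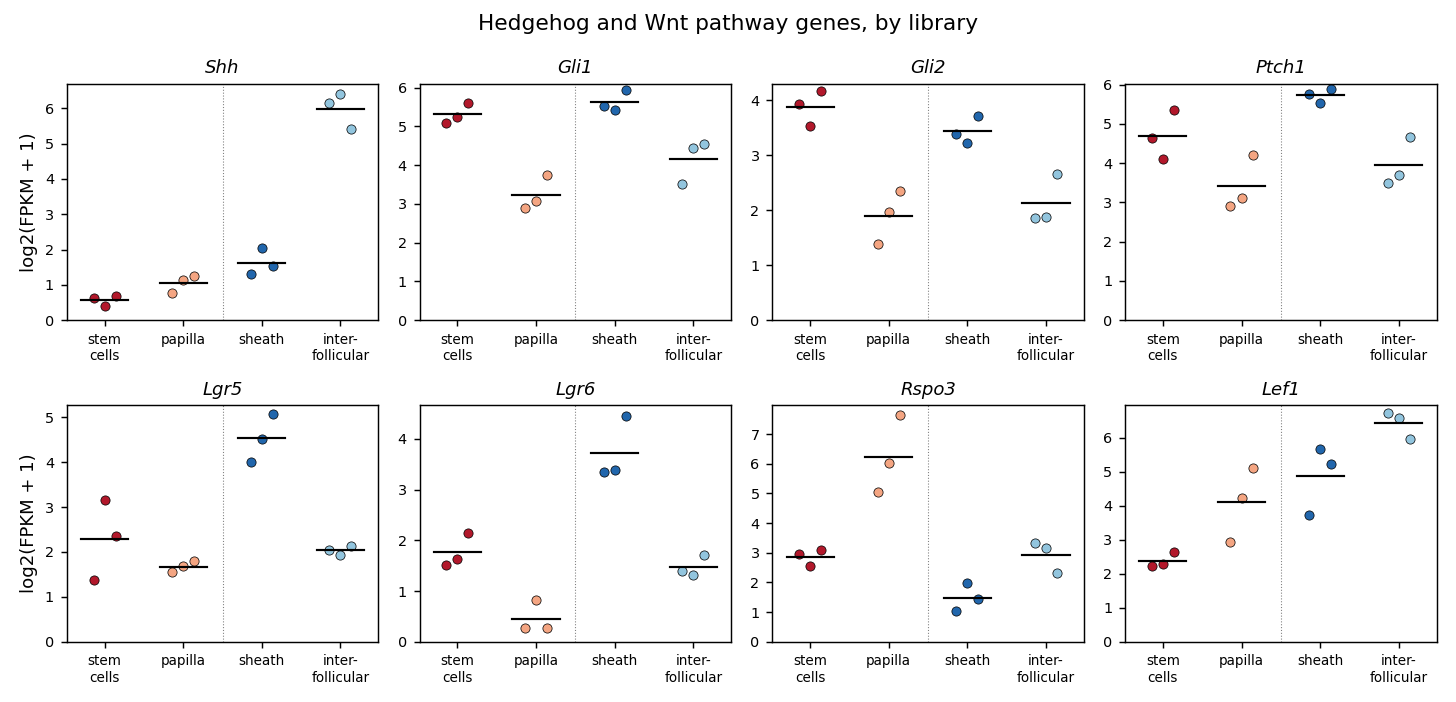
Expression as log2(FPKM + 1) in each library (points) with population means (bars) for 8 hedgehog and Wnt genes, in stem cells next to papilla and in sheath next to interfollicular dermis. Gli1, Gli2 and Ptch1 were called higher in the combined contrast, and of these only Gli1 in both arms. Shh was high in interfollicular dermis alone, and Rspo3 was highest in papilla.

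Wnt ligands, R-spondins and LGR receptors were called in both directions. Of 18 Wnt ligands, R-spondins and LGR receptors tested, 6 were called higher (Lgr6, Lgr5, Wnt11, Wnt9a, Lgr4 and Wnt5b) and 5 lower (Rspo3, Rspo2, Wnt3, Wnt10b and Wnt2); those beyond Lgr6, Rspo3, Rspo2, Wnt3 and Lgr5 were named after their values were seen. All 3 LGR genes, receptors for R-spondins, were among the higher. Lgr6 was called in both arms, with 1.88, 2.1 and 3.44 FPKM in stem cells and 9.23, 9.48 and 20.9 FPKM in sheath, against 0.215, 0.767 and 0.202 FPKM in papilla and 1.62, 1.48 and 2.27 FPKM in interfollicular dermis. Lgr5 had 1.6, 7.89 and 4.1 FPKM in stem cells and 15, 21.7 and 32.8 FPKM in sheath, against 1.92, 2.2 and 2.48 FPKM in papilla and 3.13, 2.83 and 3.37 FPKM in interfollicular dermis and was called in the sheath arm (2.49 ± 0.39, adjusted p = 0.00648) and not in the stem cell arm (0.62 ± 0.39, adjusted p = 0.348). The difference between its arms was not called (adjusted p = 0.112). Without sheath replicate 5, 3 of the 18 genes were called higher and 3 lower, and 3 were also called lower without any one of stem cells replicates 1 or 4, papilla replicates 1 or 2 or interfollicular replicate 1.

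Of the R-spondins, which strengthen Wnt signals through LGR receptors, Rspo3 and Rspo2 were called lower, and Rspo4 was not (-1.49 ± 0.44, adjusted p = 0.0521). Rspo3 had 6.81, 4.91 and 7.46 FPKM in stem cells and 1.07, 2.91 and 1.71 FPKM in sheath, against 32.4, 63.8 and 198 FPKM in papilla and 8.94, 8.01 and 3.99 FPKM in interfollicular dermis. Rspo2 had 1.65, 2.14 and 2.47 FPKM in stem cells and 0.695, 1.42 and 0.59 FPKM in sheath, against 8.03, 12.3 and 43.1 FPKM in papilla and 4.31, 3.56 and 2.55 FPKM in interfollicular dermis. In both genes papilla replicate 4 was the highest library, and both were called lower in the stem cell arm (Rspo3 -3.37 ± 0.52, adjusted p = 0.00223; Rspo2 -2.51 ± 0.47, adjusted p = 0.00671) but not in the sheath arm (Rspo3 adjusted p = 0.192; Rspo2 adjusted p = 0.213). The call of Rspo2 in the combined contrast was lost when stem cells replicates 1 and 2 were left out together.

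Secreted Wnt antagonists were mostly lower. Of 10 tested, 6 were called lower and 1 higher (Dkk3, not called under either other scaling), with a median of -1.34. The 6 became 3 when stem cells replicates 1 and 2 were left out together. Notum (chr11:120653788-120661193), an enzyme that removes the lipid from Wnt proteins, was the member called in both arms, with 2.26, 2.89 and 2.53 FPKM in stem cells and 0.862, 2.36 and 0.923 FPKM in sheath, against 7.54, 14.9 and 29.5 FPKM in papilla and 7.47, 13.5 and 6.77 FPKM in interfollicular dermis. Its fold changes were nearly equal, -2.18 ± 0.42 and -2.10 ± 0.42. Sfrp2 and Sfrp4, soluble Frizzled-related proteins, were high in papilla alone. Sfrp2 had 11.9, 15.1 and 23.4 FPKM in stem cells and 1.22, 5.08 and 2.24 FPKM in sheath, against 189, 179 and 153 FPKM in papilla and 4.09, 6.67 and 2.98 FPKM in interfollicular dermis. Sfrp4 had 5.14, 12.4 and 6.58 FPKM in stem cells and 0.434, 0.63 and 0.576 FPKM in sheath, against 109.7, 109 and 60.8 FPKM in papilla and 2.51, 0.588 and 1.99 FPKM in interfollicular dermis. Porcn, the enzyme that adds the lipid to Wnt proteins, was called higher in both arms, with 10.2, 13.6 and 13.4 FPKM in stem cells and 10.5, 18.9 and 17.3 FPKM in sheath, against 3.25, 4.4 and 3.18 FPKM in papilla and 4.32, 5.25 and 4.62 FPKM in interfollicular dermis. Like Lrig3, Prickle1, Cux1 and Flrt2 below, it was named after its values were seen.

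Dermal papilla markers were lower on balance. Of 31 tested, 9 were called lower and 2 higher, and 19 had a negative sign in both arms against 5 with a positive one. The 2 higher were Cntfr (1.73 ± 0.30, adjusted p = 0.00442) and Ptch1 (1.53 ± 0.29, adjusted p = 0.00695). The other markers, among them Sox2, Alpl, Vcan, Corin and Ncam1, were not called in the combined contrast. Cntfr, Alpl, Vcan, Corin and Ncam1 were named after their values were seen. Crabp1, a retinoic acid binding protein, had 24.1, 25.2 and 40.5 FPKM in stem cells and 3.77, 19 and 7.24 FPKM in sheath, against 86.2, 211 and 636 FPKM in papilla and 56.6, 40.01 and 17.1 FPKM in interfollicular dermis. Bmp4, a growth factor of the papilla and of other follicle cells, had 7.61, 5.64 and 18.4 FPKM in stem cells and 4.52, 6.44 and 2.67 FPKM in sheath, against 12.8, 21.1 and 51.6 FPKM in papilla and 17.3, 32.3 and 20.7 FPKM in interfollicular dermis. Bmp4 was called in the sheath arm (-2.15 ± 0.50, adjusted p = 0.0434) and not in the stem cell arm (-1.28 ± 0.50, adjusted p = 0.131). Outside this list, Scube1 (chr15:83602583-83725051), a secreted protein that can act as a BMP co-receptor, was lower in both arms, with 2.49, 2.5 and 1.55 FPKM in stem cells and 1.72, 2.49 and 0.835 FPKM in sheath, against 9.63, 14.4 and 35.7 FPKM in papilla and 7.9, 11.8 and 11.2 FPKM in interfollicular dermis. The 9 lower genes became 14 with the replicate number as a block within stem cells and papilla, 17 when papilla replicates 1 and 2 were left out together and 2 when stem cells replicates 1 and 2 were.

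Tnfrsf19 (chr14:60963834-61046855), the TNF receptor family member TROY and a known Wnt target, gave the closest match between arms among the Wnt targets. It had 1.25, 1.91 and 1.18 FPKM in stem cells and 14.7, 18.9 and 14.6 FPKM in sheath, against 5.14, 7.46 and 4.85 FPKM in papilla and 48, 48.9 and 40.3 FPKM in interfollicular dermis, with fold changes of -1.47 ± 0.23 and -1.46 ± 0.23. The 4 populations kept separate ranges, with sheath above papilla. Lef1, a transcription factor that carries the Wnt signal into the nucleus, had 3.72, 3.85 and 5.21 FPKM in stem cells and 12.1, 49.8 and 36.6 FPKM in sheath, against 6.72, 17.9 and 33.6 FPKM in papilla and 105, 94.6 and 61.4 FPKM in interfollicular dermis. It was called lower in the combined contrast (-1.63 ± 0.38, adjusted p = 0.019), a call lost without interfollicular replicate 1 (adjusted p = 0.0525), and in neither arm.

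Axon guidance ligands had 7 of 24 called higher and 1 lower, and 4 higher when stem cells replicates 1 and 2 were left out together. Ntn1 (chr11:68209364-68386826), the secreted guidance cue netrin 1, was the member called in both arms, with 51.4, 43.5 and 55.6 FPKM in stem cells and 10.5, 6.09 and 12.7 FPKM in sheath, against 7.76, 9.33 and 5.93 FPKM in papilla and 1.79, 3.21 and 3.05 FPKM in interfollicular dermis and arms of 2.57 ± 0.28 and 1.52 ± 0.28. Slit3, a ligand of Robo receptors, had 127, 78.3 and 131 FPKM in stem cells and 22.2, 9.54 and 28.2 FPKM in sheath, against 28.8, 16.3 and 31.1 FPKM in papilla and 4.5, 4.27 and 9.01 FPKM in interfollicular dermis. It was called in the stem cell arm and not in the sheath arm (adjusted p = 0.0707). Slit2, of the same family, was called in the stem cell arm alone, and its arms differed (2.27 ± 0.38, adjusted p = 0.0108). Flrt2, an adhesion protein that binds Unc5 receptors and FGF receptors, had 24.8, 28.9 and 46.5 FPKM in stem cells and 16, 19.5 and 32.1 FPKM in sheath, against 12.2, 13.8 and 14.9 FPKM in papilla and 2.93, 2.97 and 3.97 FPKM in interfollicular dermis, the largest sheath arm among the genes called higher in both after Tagln (2.41 ± 0.28).

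Many other genes called higher in both arms were most abundant in sheath. Of the 38, 22 had their higher mean in sheath and 16 in stem cells. Slc39a10 (chr1:46807544-46925776), a zinc importer, had 8.92, 29.1 and 20.1 FPKM in stem cells and 107, 157 and 194 FPKM in sheath, against 4.94, 3.37 and 3.71 FPKM in papilla and 40.3, 23.9 and 25.7 FPKM in interfollicular dermis. Lrig3, a leucine-rich repeat membrane protein of the LRIG family, had 20.7, 19.2 and 31.4 FPKM in stem cells and 40.7, 38.7 and 41.2 FPKM in sheath, against 6.49, 6.29 and 5.32 FPKM in papilla and 13, 10.1 and 14.1 FPKM in interfollicular dermis. Prickle1, a planar cell polarity protein, was among the 16 highest in stem cells. It had 16.8, 14.7 and 19.7 FPKM in stem cells and 10.7, 8.998 and 11.6 FPKM in sheath, against 5.83, 4.68 and 5.85 FPKM in papilla and 2.52, 3.6 and 2.21 FPKM in interfollicular dermis. All 3 kept their call in both arms whichever library was left out. Cux1, a homeodomain transcription factor, had 29.6, 64.8 and 43.1 FPKM in stem cells and 246, 235 and 355 FPKM in sheath, against 12.5, 20.4 and 8.56 FPKM in papilla and 81.8, 74.7 and 99.5 FPKM in interfollicular dermis. Ucp2, a mitochondrial carrier, had 186, 282 and 119 FPKM in stem cells and 417, 360.2 and 868 FPKM in sheath, against 75.8, 42 and 51.2 FPKM in papilla and 119.7, 103 and 129 FPKM in interfollicular dermis. Tbx1, a T-box factor expressed in hair follicle stem cells, had 4.43, 7.36 and 4.23 FPKM in stem cells and 15.6, 14.6 and 34.8 FPKM in sheath, against 0.249, 1.48 and 1.11 FPKM in papilla and 4.26, 7.08 and 5.3 FPKM in interfollicular dermis. Each of these 3 had its lowest group in papilla and its highest in sheath.

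A few DNA replication genes were called higher. Of 36 cell cycle genes tested, 5 were called higher (Rrm2, Mcm6, Mcm3, Mcm2 and Mcm5) and 0 lower, with a median of 0.62, and 33 had a positive sign in both arms. Mcm6, a subunit of the replicative helicase, was called in both arms, with 11.8, 20.6 and 18 FPKM in stem cells and 69.7, 93.3 and 75.9 FPKM in sheath, against 4.17, 9.41 and 7.71 FPKM in papilla and 36.2, 33.1 and 31.8 FPKM in interfollicular dermis. Rrm2, a subunit of ribonucleotide reductase, had 2.56, 8.9 and 4.26 FPKM in stem cells and 25, 33.7 and 52.5 FPKM in sheath, against 0.917, 0.733 and 0.603 FPKM in papilla and 16, 19.8 and 12.9 FPKM in interfollicular dermis. Stem cell levels stayed below every interfollicular library for both genes. The count of 5 was 14 without stem cells replicate 1 and 3 without any one of stem cells replicate 2, sheath replicates 4 or 5 or the 3 interfollicular libraries. It was 12 with the replicate number as a block within stem cells and papilla.

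Of all the lists, melanocyte genes had the largest share called lower. Of 15 listed and tested, 12 were called lower and 0 higher in the combined contrast, with a median of -2.83, and 7 were called lower in both arms (Dct, Mlana, Pmel, Tyr, Slc24a5, Slc45a2 and Mc1r). The number called stayed at 12 or 13 whichever single library was left out. Pigment genes of melanocytes were thus lower in stem cells than in papilla and lower in sheath than in interfollicular dermis. The summed level of the list was 35.1 to 41.6 FPKM in sheath against 204 to 1160 FPKM in interfollicular dermis. In stem cells it was 278 to 468 FPKM against 275 to 1049 FPKM in papilla, where Ednrb, an endothelin receptor that other cells also express, gave 338, 364 and 256 FPKM in stem cells and 72.6, 53.4 and 38.2 FPKM in papilla.

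Dct (chr14:118012790-118052246), dopachrome tautomerase of melanin synthesis, had 20.9, 29.9 and 4.56 FPKM in stem cells and 4.48, 7.17 and 5.77 FPKM in sheath, against 299, 226 and 80.2 FPKM in papilla and 356, 58 and 153 FPKM in interfollicular dermis. Stem cells replicate 4 and interfollicular replicate 2 were the lowest of their groups, and neither arm overlapped. The arms were -3.51 ± 0.70 and -4.46 ± 0.70. Mlana (chr19:29697541-29708447), a melanosome protein, had 13.8, 22.8 and 2.69 FPKM in stem cells and 2.65, 4.81 and 1.39 FPKM in sheath, against 151, 114 and 57.7 FPKM in papilla and 259, 53.4 and 97 FPKM in interfollicular dermis. Tyr (chr7:87424771-87493512), tyrosinase, the rate-limiting enzyme of melanin synthesis, had 1.76, 2.42 and 0.33 FPKM in stem cells and 0.166, 1.24 and 1.24 FPKM in sheath, against 29.8, 14.9 and 9.87 FPKM in papilla and 29.6, 4.76 and 9.11 FPKM in interfollicular dermis. Slc24a5 (chr2:125068127-125088677), an ion exchanger of the pigment pathway, had 4.91, 4.17 and 3.34 FPKM in stem cells and 1.31, 2.15 and 3.52 FPKM in sheath, against 40.02, 43.7 and 19.2 FPKM in papilla and 58.8, 10.2 and 22.1 FPKM in interfollicular dermis, with arms of -2.71 ± 0.51 and -2.96 ± 0.51. Pmel, which forms the fibrils of the melanosome, was listed at 0 in all 3 sheath libraries, so no sheath fold is given; it had 16.1, 20.9 and 4.45 FPKM in stem cells, 199, 133 and 30.9 FPKM in papilla and 177, 28.6 and 70.4 FPKM in interfollicular dermis. In Pmel, as in Dct, papilla replicate 4 was the lowest papilla library.

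Gpnmb (chr6:49036518-49058182), a membrane glycoprotein of melanocytes and macrophages, followed the same order, with 8.69, 9.15 and 3.01 FPKM in stem cells and 1.7, 1.49 and 3.03 FPKM in sheath, against 41.8, 27.9 and 17.3 FPKM in papilla and 70.4, 32.8 and 47.3 FPKM in interfollicular dermis and arms of -1.95 ± 0.42 and -4.02 ± 0.42. Mitf, the master regulator of melanocytes, and Kit were not called in the combined contrast (-0.21 ± 0.28, adjusted p = 0.687, and -0.88 ± 0.29, adjusted p = 0.0808). Sox10, shared by melanocytes and Schwann cells, was called lower (-1.61 ± 0.36, adjusted p = 0.0166). Schwann cell markers had 3 of 13 called lower and 0 higher.

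CATGTG, a hexamer bound by MITF, was searched for in the same promoters on both strands. It was present in 7 of the 26 genes called lower in both arms with a promoter (26.9%), in 3 of 29 called higher (10.3%) and in 10.1% of the tested genes with a promoter. The 7 were Cldn10, Dct, Lipm, Mc1r, Skint8, Slc24a5 and Tyr, of which 4 are in the melanocyte list. Here too the shares describe letters, not binding, and regulation by MITF was not tested. The promoters of Tyr (chr7:87493463-87493762, - strand) and Dct (chr14:118052197-118052496, - strand) are shown because these pigment genes moved together. The capitals mark the hexamer on either strand, 21 bases before the start in Tyr and 232 and 150 bases before it in Dct.
Tyr: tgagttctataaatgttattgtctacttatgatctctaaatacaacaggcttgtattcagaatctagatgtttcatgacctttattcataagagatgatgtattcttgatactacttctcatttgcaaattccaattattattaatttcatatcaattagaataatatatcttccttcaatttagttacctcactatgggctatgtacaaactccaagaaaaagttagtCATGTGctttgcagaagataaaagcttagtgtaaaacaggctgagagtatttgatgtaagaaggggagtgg
Dct: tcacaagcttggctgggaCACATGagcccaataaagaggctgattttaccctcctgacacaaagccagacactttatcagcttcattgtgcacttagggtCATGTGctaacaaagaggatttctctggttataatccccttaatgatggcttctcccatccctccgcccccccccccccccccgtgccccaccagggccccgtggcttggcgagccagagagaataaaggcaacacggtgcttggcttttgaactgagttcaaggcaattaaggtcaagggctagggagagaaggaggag

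**Figure D4:**
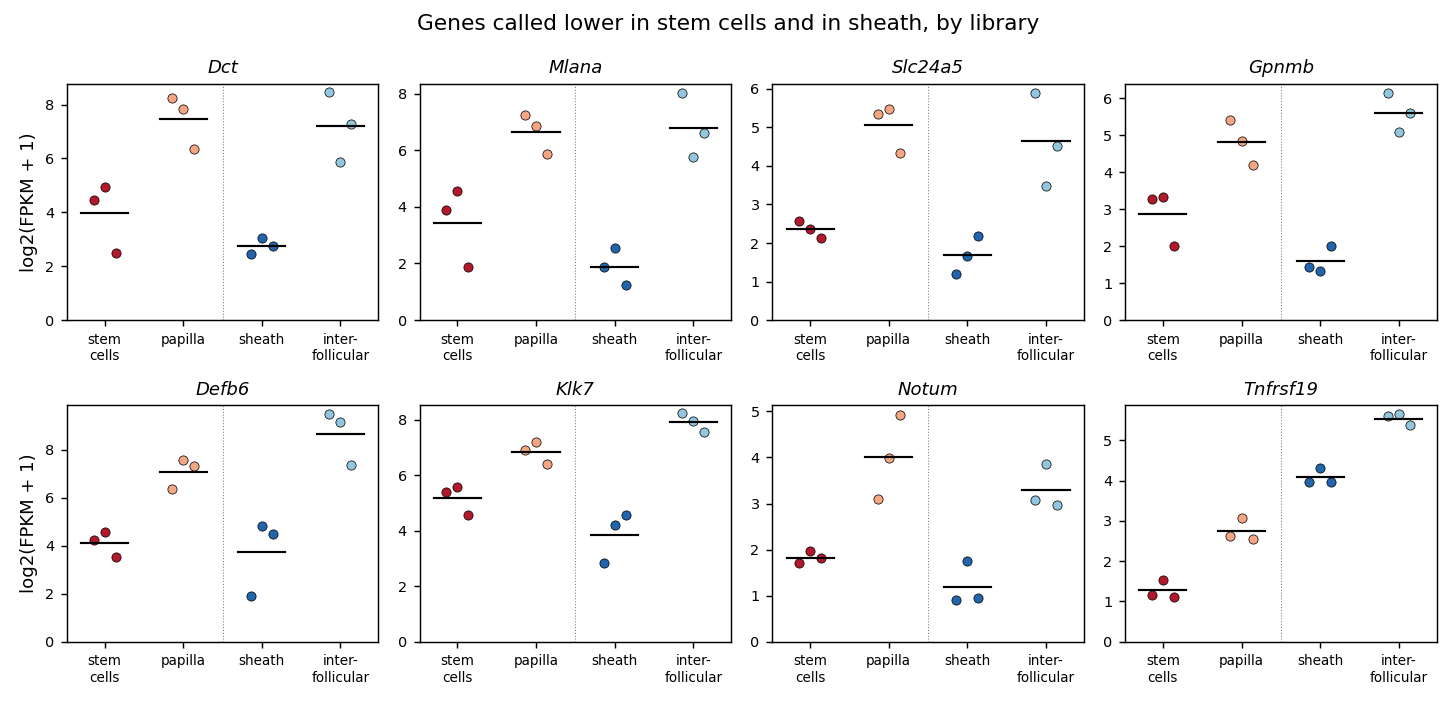
Expression as log2(FPKM + 1) in each library (points) with population means (bars) for 8 genes called lower in both arms, in stem cells next to papilla and in sheath next to interfollicular dermis. The pigment genes Dct, Mlana and Slc24a5 were low in every stem cell and sheath library, and Tnfrsf19 kept 4 separate levels.

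Genes of the upper follicle and of differentiating epidermis were also lower. Of 23 differentiated keratinocyte markers tested, 11 were called lower and 0 higher, with a median of -1.56, and 20 had a negative sign in both arms. Basal keratinocyte markers had 2 of 12 called lower and 0 higher, and the 2 became 5 without papilla replicate 4, 4 under either other scaling, and 0 without any one of stem cells replicates 1 or 4, sheath replicates 4 or 5, papilla replicates 1 or 2 or interfollicular replicates 2 or 6. The differentiated list summed to 1508 to 2856 FPKM in stem cells and 831 to 1232 FPKM in sheath, against 2578 to 10171 FPKM in papilla and 2479 to 3830 FPKM in interfollicular dermis. These are markers of another cell type than the labels name, they were above 0 in every population, and their part in other results was not tested. The count of 11 became 19 without papilla replicate 4, and 6 when papilla replicates 1 and 2, or stem cells replicates 1 and 2, were left out together.

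Klk7 (chr7:43811294-43816387), a protease that sheds the outermost skin layer, had 40.9, 47.2 and 23 FPKM in stem cells and 6.1, 17.3 and 22.5 FPKM in sheath, against 119.8, 147 and 83.4 FPKM in papilla and 303, 251 and 189 FPKM in interfollicular dermis. It was called in both arms, at -1.65 ± 0.41 and -4.07 ± 0.41. Sprr1a, a precursor of the cornified envelope, had 295, 310.5 and 149 FPKM in stem cells and 64.1, 142 and 124 FPKM in sheath, against 1794, 1351 and 374 FPKM in papilla and 1100.0, 866 and 598 FPKM in interfollicular dermis. Elovl4, an enzyme that makes the very long fatty acids of the skin barrier, was the other member called in both arms. Krt10, a keratin of the layers above the basal layer, had 271, 516 and 296 FPKM in stem cells and 47.4, 101 and 11.5 FPKM in sheath, against 1959, 2052 and 571 FPKM in papilla and 120.1, 166 and 215 FPKM in interfollicular dermis. It was called in the combined contrast (-1.99 ± 0.47, adjusted p = 0.0216), in neither arm, and not without stem cells replicate 1 (adjusted p = 0.051) or papilla replicate 1 (adjusted p = 0.0504).

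Sebaceous and infundibular markers had 6 of 13 called lower and 1 higher (Lrig1). Defb6 (chr8:19225478-19228209), a beta-defensin of skin, had 17.7, 23.1 and 10.6 FPKM in stem cells and 2.74, 27.6 and 21.6 FPKM in sheath, against 80.5, 189.9 and 158 FPKM in papilla and 708, 575 and 162 FPKM in interfollicular dermis, with arms of -2.96 ± 0.71 and -4.92 ± 0.71. Defb1, another beta-defensin, had 11.3, 8.85 and 3.85 FPKM in stem cells and 2.57, 5.34 and 1.63 FPKM in sheath, against 87.8, 82 and 14.8 FPKM in papilla and 34.2, 33.9 and 23.3 FPKM in interfollicular dermis. Krt79, a keratin of the infundibulum, was -1.02 ± 0.54 in the stem cell arm (adjusted p = 0.256) and -4.29 ± 0.54 in the sheath arm (adjusted p = 0.00131). Aldh3a1, an aldehyde dehydrogenase of barrier epithelia, was called lower in both arms, with 2.86, 1.74 and 2.18 FPKM in stem cells and 0.976, 1.02 and 1.57 FPKM in sheath, against 14, 6.4 and 14.1 FPKM in papilla and 13.1, 15.1 and 22.7 FPKM in interfollicular dermis, and was named after its values were seen.

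Cd207 (chr6:83671207-83677857), the lectin langerin that defines Langerhans cells of the epidermis, was the member of the macrophage and dendritic cell list called in the combined contrast, 1 of 19 lower and 0 higher. It had 6.25, 6.36 and 0.844 FPKM in stem cells and 1.06, 1.62 and 0.835 FPKM in sheath, against 18.1, 30.5 and 28.4 FPKM in papilla and 13.7, 6.7 and 13.9 FPKM in interfollicular dermis. Its arms were nearly equal, -2.50 ± 0.48 and -2.47 ± 0.48. Xcl1, a chemokine, was also lower in both arms; it was listed at 0 in sheath replicate 5 and did not pass 0.72 FPKM in the other stem cell and sheath libraries, against 3.21 to 5.67 FPKM in papilla and 9.65 to 36.5 FPKM in interfollicular dermis.

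Calls in the remaining lists can be set against 9.08% of all genes called in the combined contrast, 5.99% higher and 3.09% lower. Endothelial markers (16 tested), Hox genes (21), interferon response genes (19), glycolysis genes (14) and adipocyte markers (5) had 0 called in either direction by limma, with 1, 1, 3, 4 and 1 members at an unadjusted p under 0.05. Pericyte markers had 2 of 12 called higher, striated muscle genes 2 of 12, FGF pathway genes 3 of 16, immediate early genes 3 of 22 (0 under either other scaling and without any one of stem cells replicate 2, sheath replicate 5, papilla replicate 1 or interfollicular replicate 1), and heat shock genes, Notch pathway genes and lymphocyte and mast cell markers 1 each of 14, 17 and 16, with 0 lower in all of these. IGF and PDGF genes had 3 of 16 higher and 1 lower, TGF-beta pathway genes 2 of 18 higher and 2 lower, Wnt target genes 2 of 14 higher and 3 lower, and BMP pathway genes 2 of 23 higher and 5 lower. Interfollicular fibroblast markers had 1 of 21 higher and 4 lower, and hair matrix and shaft genes 1 of 21 lower (3 without papilla replicate 4, and 3 with the replicate block within stem cells and papilla). Of the 2 reporter genes Acta2 was called higher, while Sox2 was not called (-0.47 ± 0.29, adjusted p = 0.337). Where a list had calls in one direction and 0 in the other, the members at an unadjusted p under 0.05 in that other direction also numbered 0 in the smooth muscle, actin, cell cycle, differentiated keratinocyte, basal keratinocyte and Schwann cell lists, 1 in the melanocyte, sheath and cup, collagen, striated muscle and heat shock lists, and 3 in the basement membrane, matrix enzyme, FGF and lymphocyte and mast cell lists. The pericyte, Notch, immediate early, hair matrix and macrophage lists had 0.

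**Figure D5:**
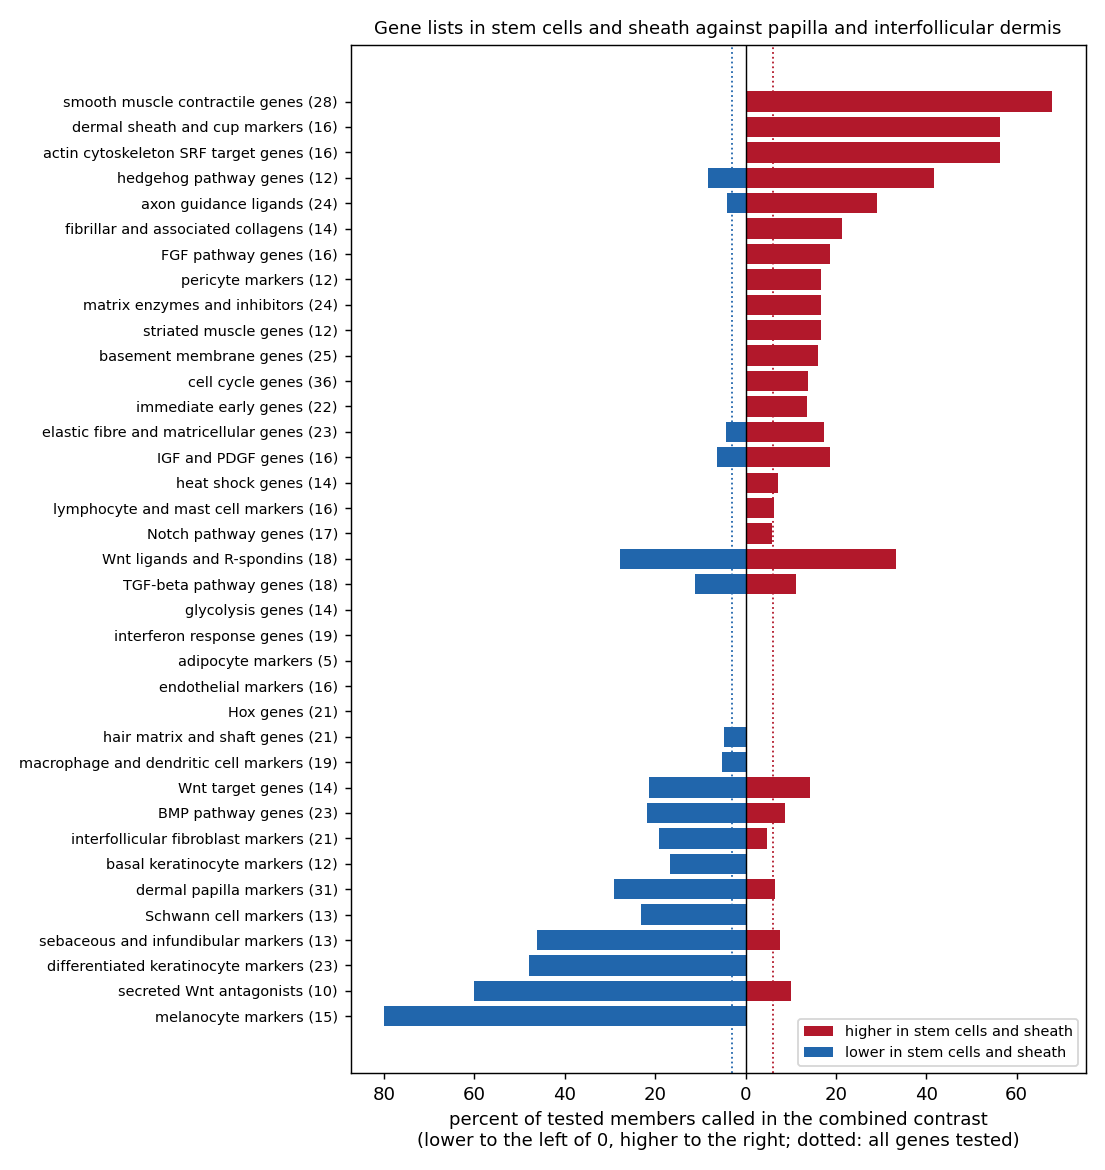
Share of each gene list's tested members called higher (bars to the right) and lower (bars to the left) in stem cells and sheath in the combined contrast, in percent, with the share over all genes tested for comparison. The melanocyte list has 12 of 15 members lower and the smooth muscle list 19 of 28 higher, against 3.09% lower and 5.99% higher over all genes.

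The 10 genes called in opposite directions passed the test in each arm. Phlda3 (chr1:135766085-135769134), a p53 target that restrains AKT, had 30.2, 19.6 and 23.6 FPKM in stem cells and 3.04, 5.64 and 2.54 FPKM in sheath, against 5.53, 5.02 and 2.69 FPKM in papilla and 18.7, 20.3 and 20.7 FPKM in interfollicular dermis. It was 2.26 ± 0.29 in the stem cell arm and -2.19 ± 0.29 in the sheath arm, and its combined fold change was 0.03 ± 0.21. Sept9, a septin of the cytoskeleton, had 53.2, 46 and 67.2 FPKM in stem cells and 11.3, 9.38 and 8.81 FPKM in sheath, against 17.9, 22.2 and 12.7 FPKM in papilla and 26, 23.1 and 26.3 FPKM in interfollicular dermis. Isg20, an interferon-induced nuclease, had 32.3, 38.1 and 34.4 FPKM in stem cells and 3.21, 1.39 and 1.82 FPKM in sheath, against 9.9, 15.5 and 7.35 FPKM in papilla and 5.3, 7.28 and 10.2 FPKM in interfollicular dermis. Both were higher in stem cells than in papilla and lower in sheath than in interfollicular dermis, as were Fam174b, Hdac11, Anxa4 and Gpc3, of which Anxa4 and Gpc3 were named after their values were seen. Dpp4 (chr2:62330073-62412315), the cell surface peptidase CD26, ran the other way, with 1.77, 5.18 and 2.51 FPKM in stem cells and 19.9, 15.5 and 8.36 FPKM in sheath, against 25, 30.1 and 13 FPKM in papilla and 4.16, 2.12 and 4.42 FPKM in interfollicular dermis. Fam198b and Ugp2 shared its direction.

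Most genes whose arms differed had the more positive fold change in the stem cell arm, by a margin that depended on scaling. The test of that difference called 264 genes (2.07%), 215 with the more positive arm in stem cells (1.68%) and 49 with the more positive arm in sheath (0.384%), and 139 of them were also called in the combined contrast. In the same order, the 2 directions had 156 and 78 genes after median-of-ratios scaling and 143 and 100 after quantile normalization. Adamts18 (chr8:113697123-113849343), a secreted metalloprotease, had 45.2, 35.9 and 56.6 FPKM in stem cells and 0.459, 0.107 and 0.713 FPKM in sheath, against 0.469, 0.501 and 1.16 FPKM in papilla and 0.0395, 0.194 and 0.406 FPKM in interfollicular dermis. Its combined call (2.50 ± 0.20, adjusted p = 9.27e-05) rested on the stem cell arm, 4.78 ± 0.29, since the sheath arm was 0.22 ± 0.29 (adjusted p = 0.783). Lrrc15, a leucine-rich repeat membrane protein of fibroblasts, had 265, 195 and 456 FPKM in stem cells and 9.6, 5.51 and 7.88 FPKM in sheath, against 5.67, 15.9 and 6.04 FPKM in papilla and 1.23, 2.48 and 2.11 FPKM in interfollicular dermis. It was called in the stem cell arm (4.96 ± 0.39) and not in the sheath arm (1.56 ± 0.39, adjusted p = 0.0622). Of the 72 genes called in both arms, limma called 0 for a difference between them, and 12 had an unadjusted p under 0.05 for it.

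Most calls in both arms were lost without one library or another. Of the 72, 12 kept their call whichever library was left out, 4 higher (Lrig3, Prickle1, Slc39a10 and Smtn) and 8 lower (Aldh3a1, Dct, Mc1r, Mlana, Slc24a5, Slc45a2, Syngr1 and Tnfrsf19); the membership of these 12 was read off after the fits. The count fell to 27 without sheath replicate 5 and 28 without interfollicular replicate 1, and was 147 without papilla replicate 4. For the contractile and actin genes described above, the libraries whose omission ended the call in both arms were as follows, given by replicate number, with the adjusted p of the arm that then missed the threshold. Tagln lost its call without interfollicular 1 (adjusted p = 0.0846). Tpm1 was not called in both arms without sheath 5 (adjusted p = 0.0512). Acta2 lost the call without sheath 5 or interfollicular 1 or 2 (adjusted p = 0.0506 to 0.0999). Myl9 lost its call without sheath 4 or 5 or interfollicular 1 or 6 (adjusted p = 0.057 to 0.121). Fhl1 was not called in both arms without sheath 4 or 5 or interfollicular 1 or 6 (adjusted p = 0.0593 to 0.127). Cald1 lost the call without sheath 1, 4 or 5 or interfollicular 1, 2 or 6 (adjusted p = 0.0635 to 0.121). In 5 of these 6 genes sheath replicate 5 was among the libraries, and in 5 interfollicular replicate 1.

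The same was read off for matrix, adhesion, guidance and signalling genes. Bgn lost its call without sheath 5 or interfollicular 1 (adjusted p = 0.0559 to 0.0589). Mcam was not called in both arms without sheath 5 or interfollicular 1 or 2 (adjusted p = 0.0523 to 0.0859). Ntn1 lost the call without sheath 1 or 5 or interfollicular 1 (adjusted p = 0.0589 to 0.0791). Mgp lost its call without sheath 4 or 5 or interfollicular 1 or 6 (adjusted p = 0.0644 to 0.121). Porcn was not called in both arms without sheath 5 (adjusted p = 0.0529). Scube1 lost the call without sheath 1 or 5 or interfollicular 1 or 2 (adjusted p = 0.0526 to 0.0936). Notum lost its call without sheath 1 or 5 or interfollicular 1 or 2 (adjusted p = 0.0734 to 0.108). Gli1 was not called in both arms without sheath 1, 4 or 5 or interfollicular 1 or 2 (adjusted p = 0.0538 to 0.136). In these 8 genes it was the sheath arm that missed the threshold, and in Tnc, Flrt2 and Lgr6 the stem cell arm. Tnc lost the call without stem cells 2 or 4 or papilla 1 or 4 (adjusted p = 0.0691 to 0.131). Flrt2 lost its call without stem cells 2 or 4 or papilla 1 or 2 (adjusted p = 0.0514 to 0.0882). Lgr6 was not called in both arms without stem cells 1, 2 or 4 or papilla 1 or 4 (adjusted p = 0.0585 to 0.107).

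Pigment, barrier and other genes varied in how many libraries they needed. Gpnmb lost the call without papilla 1 (adjusted p = 0.0522). Xcl1 lost its call without stem cells 2 (adjusted p = 0.0594). Defb6 was not called in both arms without stem cells 1 or 4 or papilla 2 (adjusted p = 0.0669 to 0.0747). Cux1 lost the call without sheath 5 or interfollicular 1 or 2 (adjusted p = 0.0868 to 0.103). Klk7 lost its call without stem cells 1 or 4 or papilla 1 or 2 (adjusted p = 0.0661 to 0.0958). Pmel was not called in both arms without stem cells 1 or 4 or papilla 1 or 2 (adjusted p = 0.0615 to 0.0979). Cd207 lost the call without sheath 1 or 5 or interfollicular 1 or 6 (adjusted p = 0.0557 to 0.0962). Tyr lost its call without sheath 1, 4 or 5 or interfollicular 1 or 6 (adjusted p = 0.0557 to 0.12). Ucp2 was not called in both arms without stem cells 1 or 2 or sheath 5 or interfollicular 1 or 2 (adjusted p = 0.0515 to 0.0624). Tbx1 lost the call without stem cells 2 or sheath 1 or 5 or interfollicular 1, 2 or 6 (adjusted p = 0.0595 to 0.15). Defb1 lost its call without stem cells 4 or sheath 1 or 5 or papilla 1 or 2 or interfollicular 1 or 2 (adjusted p = 0.0636 to 0.099). Sprr1a was not called in both arms without stem cells 1, 2 or 4 or sheath 1 or papilla 1 or 2 or interfollicular 1 or 2 (adjusted p = 0.0523 to 0.122). Mcm6 lost the call without stem cells 2 or 4 or sheath 1, 4 or 5 or papilla 1 or interfollicular 1, 2 or 6 (adjusted p = 0.067 to 0.139). Elovl4 lost its call without stem cells 1 or 4 or sheath 1, 4 or 5 or papilla 1 or 2 or interfollicular 1, 2 or 6 (adjusted p = 0.0654 to 0.146).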

How the data were processed

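FPKM values of 12 libraries from sorted cells of mouse back skin, 3 from each of 4 populations, were used as deposited in 1 table. Libraries were made with a SOLiD protocol from total RNA, per the labels' protocols, and the authors used TopHat2 2.0.13, SAMtools and Cufflinks 2.2.1 with the mm10 build, per the submitters' processing notes; the gene annotation is not given in the sources used here. The FPKM of a library summed to 181683 to 262695, and its depth relative to stem cells replicate 2, read from the smallest steps of low values, ran from 0.633 to 1.93. This is approximate, how many reads lie behind an FPKM is not known, and a listed 0 can be a failed estimate.

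A filter on low values kept 12774 of 24692 entries, those that reached 1 FPKM in 3 or more libraries, and log2(FPKM + 1) was fitted for these. The fit used R 4.3.3 and its package limma 3.58.1. Each population had its own mean (8 residual degrees of freedom, a prior of 4.61 from the mean-variance trend), the 4 means were weighted equally, and p-values were adjusted by Benjamini-Hochberg over all genes tested, with a threshold of 0.05. Tables were read with Python 3.11.15 and pandas 2.3.3, and the fit was tested on simulated data. The labels do not say that replicates are separate animals, so p-values measure the spread between these libraries only, which may be technical. Positions and promoters came from RefSeq (GRCm38.p6), to which 12284 tested entries matched.

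Named genes were the 10 in each direction called in both arms with the largest smaller arm, above 0 in every library and with a mean of at least 5 FPKM in a population of the higher side; the 5 in each direction with the largest combined fold change and no overlap in either arm; the 5 in each direction called with opposite signs; up to 4 called members of each of 38 gene lists; 13 fixed marker and reporter genes; and up to 4 genes called in both arms with a listed 0. The comparison and the lists were chosen with earlier results of these data known. Other pseudocounts, filters, scalings and weights, fits of 6 libraries, replicate blocks and the omission of libraries were tried as alternatives.

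Replicate numbers of the labels were checked as pairs. After removal of population means, same-numbered stem cell and papilla libraries correlated at 0.306, 0.241 and 0.389 over genes. Same-numbered libraries of the other population pairs ran from -0.272 to 0.294, which overlaps those values. Libraries with different numbers were not compared, so the correlations cannot show that the numbers mark pairs. The main fit has no block.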

Additional observations from a re-analysis of the deposited data

Results flagged for a closer look

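The test of the difference between the arms singled out 30 of the genes named by rule, 23 with the more positive fold change in the stem cell arm and 7 with the more positive one in the sheath arm. Values are the stem cell arm minus the sheath arm on the log2(FPKM + 1) scale, with limma's p adjusted over all genes tested.

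Muscle and actin genes among the 23 were Actg2 (2.57, adjusted p = 0.02), Casq2 (3.39, adjusted p = 0.0124), Tnnt1 (4.38, adjusted p = 0.00262) and Fhl2 (2.0, adjusted p = 0.0204), where Casq2 encodes a calcium store protein and Tnnt1 a troponin of striated muscle. Casq2 had fold changes of 4.33 in the stem cell arm and 0.94 in the sheath arm, and Tnnt1 of 4.45 in the stem cell arm and 0.07 in the sheath arm. Matrix and secreted genes were Acan (2.75, adjusted p = 0.02), Adamts18 (4.56, adjusted p = 0.000273), Mmp11 (2.91, adjusted p = 0.0193), Nid2 (2.02, adjusted p = 0.0461), Ctgf (2.11, adjusted p = 0.0182), Slit2 (2.27, adjusted p = 0.0108), Igfbp2 (3.68, adjusted p = 0.0335) and Igfbp4 (3.26, adjusted p = 0.00305). Igfbp2 and Igfbp4, which bind insulin-like growth factors, had fold changes of 4.05 in the stem cell arm and 0.37 in the sheath arm, and 3.57 in the stem cell arm and 0.31 in the sheath arm. Heyl, an effector of Notch signalling, had 1.75 in the stem cell arm and -0.42 in the sheath arm, and its arms differed by 2.17 (adjusted p = 0.00642).

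Genes called with opposite signs were Phlda3 (4.45, adjusted p = 0.000323), Sept9 (2.89, adjusted p = 0.00133), Isg20 (3.10, adjusted p = 0.00429), Fam174b (3.48, adjusted p = 0.00325) and Hdac11 (2.44, adjusted p = 0.013), higher in stem cells than in papilla and lower in sheath than in interfollicular dermis, and Dpp4 (-4.26, adjusted p = 0.00396), Fam198b (-2.69, adjusted p = 0.00409) and Ugp2 (-1.59, adjusted p = 0.013) with both signs turned round. Epithelial and follicle genes were Shh (3.87, adjusted p = 0.00133), Krt35 (4.62, adjusted p = 0.00634) and Krt79 (3.27, adjusted p = 0.0466). Their differences came from low sheath against high interfollicular values, and Krt35, a hair cortex keratin, had fold changes of -0.41 in the stem cell arm and -5.03 in the sheath arm. The remaining genes with the more positive stem cell arm were Stmn2 (4.68, adjusted p = 0.00725) and Lrrc15 (3.40, adjusted p = 0.00861). Those with the more positive sheath arm were Sfrp2 (-2.73, adjusted p = 0.0181), Sfrp4 (-2.69, adjusted p = 0.0196), Chrdl1 (-2.05, adjusted p = 0.0401) and Cdh19 (-2.14, adjusted p = 0.0221); Chrdl1, a secreted BMP antagonist, had -2.12 in the stem cell arm and -0.07 in the sheath arm, and Cdh19, a cadherin of Schwann cells, -2.66 in the stem cell arm and -0.52 in the sheath arm.

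Of the 30 differences, 17 kept their call whichever library was left out. The other 13 lost it without at least 1 library: Acan (4 libraries, adjusted p up to 0.0609), Actg2 (4 libraries, adjusted p up to 0.0681), Cdh19 (5 libraries, adjusted p up to 0.079), Chrdl1 (10 libraries, adjusted p up to 0.102), Ctgf (2 libraries, adjusted p up to 0.0661), Fhl2 (6 libraries, adjusted p up to 0.0626), Igfbp2 (9 libraries, adjusted p up to 0.0941), Krt79 (9 libraries, adjusted p up to 0.125), Mmp11 (4 libraries, adjusted p up to 0.0626), Nid2 (10 libraries, adjusted p up to 0.117) and Sfrp4 (5 libraries, adjusted p up to 0.0681), and without stem cells replicate 1 alone Hdac11 (adjusted p = 0.0501) and Sfrp2 (adjusted p = 0.0642).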

How the results depend on the processing

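Counts of called genes moved more than directions: no alternative turned the direction of a called gene named by rule, and 94 of the 113 named genes called in the combined contrast kept that call whichever library was left out. Pseudocounts, filters, scalings and the trend kept the counts of the combined contrast and of each arm within 1.5 times of their main values, 1160, 1110 and 289. The 264 differences between arms became 139 with a pseudocount of 0.1, and the 72 genes called in both arms became 31 with no filter on low values. With library quality weights the sheath arm had 706 calls, the difference 513 and both arms together 154. Fitted in its own 6 libraries the stem cell arm had 512 calls, and 21 genes, all among the 72, were called in both arms.

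When the replicate number was a block across all 12 libraries, the combined contrast had 760 calls, the sheath arm 150 and both arms 38, of which 21 were among the 72. The block within stem cells and papilla only was chosen after the correlations of same-numbered libraries were seen. With it both arms called 125 genes, 71 of them among the 72, and the other counts stayed within 1.5 times.

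Leaving out 1 library at a time gave 634 (without sheath replicate 5) to 1499 (without papilla replicate 4) calls in the combined contrast, 465 (without stem cells replicate 1) to 1377 in the stem cell arm, 98 (without sheath replicate 5) to 426 in the sheath arm, 81 (without stem cells replicate 1) to 355 for the difference and 27 (without sheath replicate 5) to 147 for both arms, each highest without papilla replicate 4. Without papilla replicates 1 and 2, an omission also chosen after seeing the data, the difference had 514 calls and both arms 47, of which 32 were among the 72. Without stem cells replicates 1 and 2, the libraries with the most macrophage transcripts, chosen likewise, calls numbered 349 in the combined contrast, 131 in the stem cell arm, 173 in the sheath arm, 32 for the difference and 17 in both arms, all among the 72. These omissions leave 1 library in that population, which is assumed to vary like the others; fewer libraries were fitted, and any other cause was not tested. Depth is unknown beyond the relative values, so low FPKM carry an error that cannot be stated.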
